A study of Homo sapiens with 24 samples.

Results

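The mRNAs that encode the proteins of the cytosolic ribosome were followed in HepG2 cells after transcription was stopped and after loss of each IGF2BP protein. Members were all protein-coding genes whose symbol is RPL or RPS followed by a number, with or without a closing A or X, together with RPLP0, RPLP1, RPLP2 and RPSA. Paralogs with symbols ending in L or Y, RPL7L1 and all pseudogenes were left out. The rule gave 77 genes of the 58676 gene rows used, 46 for the large subunit and 31 for the small subunit, and all 77 passed the filter on low counts.

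Ribosomal proteins join ribosomal RNA to form the small subunit, which reads the mRNA, and the large subunit, which makes the peptide bond. Most of their mRNAs are short, abundant and translated under the control of the mTOR kinase. They start with a C followed by a run of pyrimidines, the 5′ terminal oligopyrimidine (TOP) motif, which is bound by LARP1 and is known for setting the translation and stability of these mRNAs together. The 3 IGF2BP proteins bind many mRNAs through KH domains.

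All cells were HepG2, an established human liver cancer line with epithelial morphology, transfected with either a non-targeting siRNA (siControl) or siRNA against IGF2BP1, IGF2BP2 or IGF2BP3 (siIGF2BP1, siIGF2BP2, siIGF2BP3). Each of these 4 conditions was collected at 0, 3 and 6 h of actinomycin D, an inhibitor of transcription, in 2 replicates, which gave 24 libraries of polyadenylated RNA. The model is a single hepatoma line with transient knockdown, and the 0 h cells of each condition received no time with the drug. Nothing in the labels says that replicates were separate transfections, so p-values measure the spread between these samples, which may be technical. By the authors' methods, each transfected plate was split into 3 plates before the drug was added. The 3 times of a replicate may thus share a transfection, while the fits treat all libraries as independent.

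Libraries held between 31843248 and 74252042 gene reads, with 50889 to 119088 reads from the ERCC spike-in, a set of synthetic RNAs added in proportion to total RNA. Each siRNA target was lower over all times, by 2.50 (IGF2BP1), 2.12 (IGF2BP2) and 1.79 (IGF2BP3) on the log2 scale after knockdown. IGF2BP1 itself was at 693 and 709 CPM (gene reads scaled to equal library totals) at 0 h in siControl and at 145 and 148 in siIGF2BP1. The 10 hepatocyte markers ran from a mean over all libraries of 57.6 CPM for TTR to 36227 for APOB, with 14968 for AFP and 14031 for ALB. Of the 8 markers of other cells, ACTA2 was highest at 35.5 CPM and PECAM1 was at 0.742. The leukocyte markers PTPRC and CD3E were near 0. A set of 8 libraries stood apart in the reads assigned to ribosomal protein pseudogenes, with 2.07 to 2.22 per 100 member reads against 1.67 to 1.81 in the other 16. These 8 libraries were siControl 6 h replicate 2, siIGF2BP3 3 h replicate 2 and every 6 h library of the 3 knockdowns, so the split runs partly with time, and values without them are given where they bear on a result.

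The start sites are shown because the TOP motif is what these mRNAs are best known to share and because the members that later stood apart can be read beside typical ones. RefSeq promoter entries (GRCh38.p14) were found for 62 of the 77 members. Each line gives 30 bases of the transcribed strand, 12 before the start and 18 from it, and capitals mark the unbroken run of C and T that begins at the first transcribed base.
RPS6, chr9:19380219-19380248, minus strand: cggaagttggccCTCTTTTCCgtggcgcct
RPL13A, chr19:49487596-49487625, plus strand: caaaacctcctcCTTTTCCaagcggctgcc
RPLP0, chr12:120201094-120201123, minus strand: cgggcgcgaggcCCTTCTCTCgccaggcgt
RPLP2, chr11:809955-809984, plus strand: cgtcggcgccttCCTTTTCCTCCCTgtcgc
RPL28, chr19:55385920-55385949, plus strand: cccctcgccttcCTCTTTCCgtctcaggtc
RPL39, chrX:119791613-119791642, minus strand: ttccgccagcttCCCTCCTCTTCCTTTCTC
RPL41, chr12:56116621-56116650, plus strand: aacttcgcctttCTCTCggccttagcgcca
RPL14, chr3:40457327-40457356, plus strand: cgggtcttcttcCTTCTCgcctaacgccgc
RPS15, chr19:1438384-1438413, plus strand: gcaggcgcggacCaaagcgatctcttctga
RPL6, chr12:112409268-112409297, minus strand: gagacggcgcgtgcactgtgttcctggtcc

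A start of C followed by at least 4 pyrimidines was present in 46 of the 62 members with an entry (74.2%). On the opposite strand, read from the same first base, it was present in 0 of the 62. That reading needs a G at the first transcribed base, so starts that carry the motif could not match there. The 0 is therefore not a background rate for the members. Among all RefSeq promoters the same pattern was found for 1404 of 27305 genes (5.14%), or 4.07% of starts on the transcribed strand and 2.07% on the opposite strand. It was present in 12 of 13 other known TOP mRNAs with an entry (92.3%) and in 6 of 69 mitochondrial ribosomal protein genes (8.70%). The listed starts of RPS15 and RPL6 did not carry it, which says only that these letters are not at the start RefSeq gives. Members with no entry included RPL5, RPL7, RPL8, RPL23, RPL23A, RPL30, RPL37, RPS2, RPS15A and RPS20.

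Levels were compared between genes as RPKM (CPM divided by the length of the canonical transcript in kilobases) in siControl at 0 h. RPLP2, which with RPLP0 and RPLP1 forms the acidic stalk that recruits elongation factors, was highest at 2792 ± 63.9 (SD, n = 2). RPL19 followed at 2293 ± 46.7, RPL13A at 2251 ± 70.9, RPL27 at 1952 ± 14.8 and RPLP0 at 1937 ± 48.3. RPL19 and RPL13A did not differ beyond their spread, nor did RPL27 and RPLP0, and the median member was at 562.

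Among the lowest values were those of RPS10 at 5.64 ± 2.48 and RPL36A at 6.59 ± 0.012 RPKM. These genes share exons with other annotated genes on the same strand. RPS10 was overlapped over 84.0% of its canonical transcript (by RPS10-NUDT3) and RPL36A over 43.8% (by RPL36A-HNRNPH2). RPL17 was overlapped over 96.9% and RPL26 over 65.3%, and 69 members had no such overlap. The deposited counts of the 5 members overlapped over more than 40% are therefore uncertain, and the remaining 72 are described on their own below, a split chosen after the values were seen. Pseudogenes named for the member held more reads than the gene itself for RPL36A, RPS28 and RPL17, with 588, 338 and 296 reads per 100 member reads. The median member had 0.316. RPS28 has no exon overlap and stays among the 72, though its count is uncertain as well. Long annotated 3′ ends also lower the RPKM of some members, such as RPL14, whose canonical transcript has 7136 bases.

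As a group, ribosomal protein mRNAs took a larger share of the reads the longer transcription was stopped. In siControl the members held 4.88% and 4.94% of gene reads at 0 h, 6.44% and 6.40% at 3 h, and 7.38% and 7.37% at 6 h (replicates 1 and 2). At 6 h the share was 6.85% and 6.97% in siIGF2BP1, 7.38% and 7.47% in siIGF2BP2, and 7.08% and 7.25% in siIGF2BP3. In each of the 4 conditions the replicates of the 3 times did not overlap, and the share was highest at 6 h. Mitochondrial ribosomal protein mRNAs, whose products work in the separate ribosome of mitochondria, went from 0.448% and 0.452% at 0 h to 0.406% and 0.402% at 6 h in siControl. These sums were not tested and are given as a description.

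**Figure D1:**
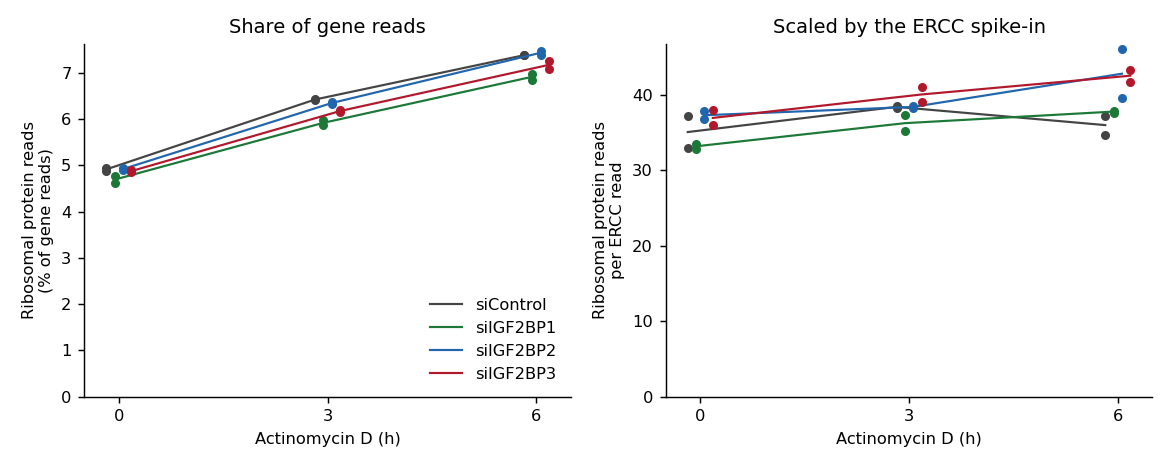
Share of gene reads held by the 77 ribosomal protein mRNAs (left, percent) and their reads per ERCC spike-in read (right) against hours of actinomycin D, with points for libraries and lines for group means in the 4 conditions. The share in siControl goes from 4.88% and 4.94% at 0 h to 7.38% and 7.37% at 6 h, while reads per spike-in read are 37.2 and 32.9 at 0 h and 37.2 and 34.7 at 6 h.

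Set against the spike-in, the amount of these mRNAs changed little in siControl. Member reads per ERCC read were 37.2 and 32.9 at 0 h, 38.6 and 38.2 at 3 h, and 37.2 and 34.7 at 6 h, with overlapping groups at 0 and 6 h. In the knockdowns they were 32.8 to 37.9 at 0 h and 37.6 to 46.0 at 6 h. The highest value, 46.0, came from siIGF2BP2 6 h replicate 2, beside 39.5 in replicate 1. Replicates differed with an SD of 0.069 log2 units on this scale, which is larger than many of the changes described next.

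The first comparison asked how fast each mRNA was lost in siControl. The slope is the change of a gene in log2 units over 6 h of actinomycin D, fitted across 0, 3 and 6 h and scaled by the ERCC total. The 77 members had a median slope of 0.03, against a median of -0.88 for the 13136 genes tested. Of all genes 80.3% fell and 0.251% rose (edgeR adjusted p below 0.05), whereas 3 members fell and 1 rose. The single member that rose was RPL28, a large subunit protein, with a slope of 0.17 (SE 0.076, adjusted p 0.0458), and leaving out a library ended that call in 15 fits. The median member stood at percentile 95.5 of all slopes, with 69 of 77 above percentile 90 and 3 below percentile 50.

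A change of scale shifts all genes nearly alike, so it moved the direction of the member slopes and hardly their position among all genes. With TMM scaling, which sets the bulk of genes to no change, the median slope of all genes was -0.02 and that of the members 0.90. On that scale 74 members rose and 1 fell in siControl, beside 36.3% of all genes that rose and 38.7% that fell. The median member was at percentile 95.6 there, and again 69 stood above percentile 90. A slope near 0 on the spike-in scale and a slope near 0.90 on the TMM scale are thus the same counts read against different references.

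The 72 members without a large overlap moved as a narrow group in siControl. Their slopes on the ERCC scale ran from -0.13 (RPS16) to 0.17 (RPL28), with a median of 0.04 and an SD of 0.066. The median SE of a slope was 0.078, but it includes spike-in error that all members of a library share. With TMM scaling the SD was 0.0653 and the median SE 0.0636. The lowest of them was still at percentile 89.2 of all genes. At 6 h they were at 91.6% (RPS16) to 112% (RPL28) of their 0 h level, with a median of 102%. At 3 h they were at 96.4% (RPL22) to 116% (RPL28), with a median of 109%.

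Single members show how alike the time courses were. RPS6, the small subunit protein phosphorylated by S6 kinases, was at 1424 and 1372 CPM at 0 h, 1787 and 1805 at 3 h, and 2043 and 2105 at 6 h in siControl. Against the spike-in its 6 h level was 101% ± 2.89 of 0 h (SD, n = 2). The 3 times did not overlap in CPM, while the spike-in level at 6 h lay within the spread of 0 h. RPLP0, the stalk protein often used as a reference gene, went from 2103 and 2178 CPM to 3399 and 3425, and its 6 h level was 109% ± 4.82 on the ERCC scale. RPL41, which encodes the shortest of the ribosomal proteins, went from 85.9 and 85.5 CPM to 116 and 116 and was at 92.3% ± 4.78. Its slope of -0.12 (SE 0.078, adjusted p 0.18) did not pass the test.

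**Figure D2:**
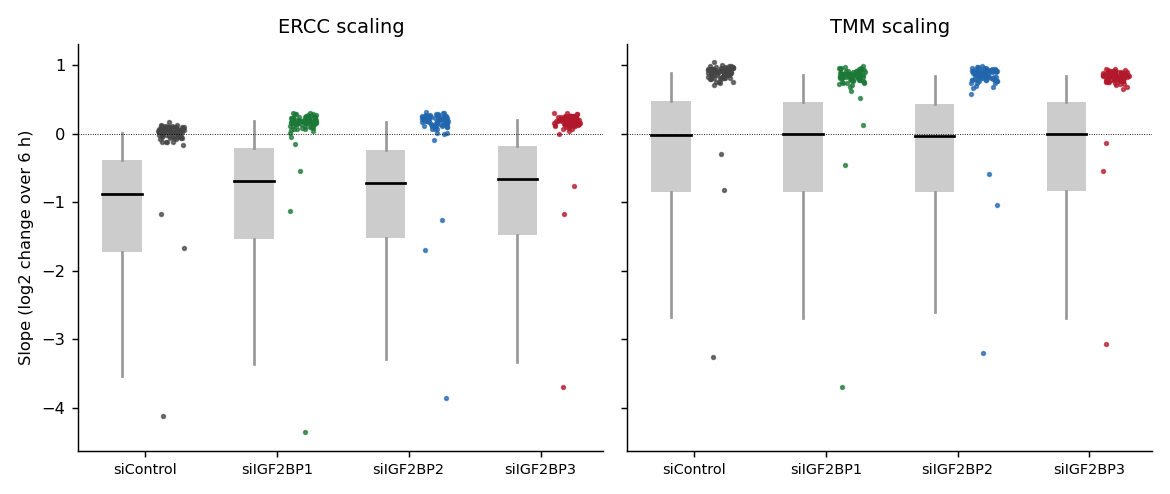
Slope over 6 h (log2) of each of the 77 members (points) beside the median, quartiles and outer percentiles (5 and 95) of all genes tested (boxes and whiskers) in each condition, scaled by ERCC (left) and by TMM (right). In siControl the member median is 0.03 against -0.88 for all genes with ERCC and 0.90 against -0.02 with TMM, and RPL36A, at -4.11 with ERCC, is the lowest member.

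The members that fell were all among those with shared exons and very low counts. RPL36A, a large subunit protein at the exit site for tRNA, was at 5.02 and 5.01 CPM at 0 h, 1.08 and 0.456 at 3 h, and 0.482 and 0.468 at 6 h in siControl. Its slope was -4.11 (SE 0.68, edgeR adjusted p 9.1e-06) and its half-life, taken over all times, was 1.22 h. When the reads of pseudogenes named for RPL36A were added, the slope of the sum, in which pseudogene reads outnumber those of the gene, was 0.0081. The part of read assignment in the fall of RPL36A was not tested.

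RPS10 was at 2.28 and 4.35 CPM at 0 h and at 1.48 and 1.59 at 6 h, with a slope of -1.66 (SE 0.46, adjusted p 0.0025). RPL17 and RPL26, which also have large overlaps, were called neither lower nor higher in siControl. RPL17 went from 7.39 and 6.40 to 9.10 and 8.89 CPM, and RPL26 from 13.2 and 13.3 to 18.7 and 18.5.

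The steps from 0 to 3 h and from 3 to 6 h differed in sign on the ERCC scale. From 0 to 3 h the members had a median change of 0.12, against -0.44 for all genes, and 8 rose and 2 fell, beside 0.906% of all genes that rose and 61.3% that fell. The risers included RPL28 (0.22), RPSA (0.20), RPLP0 (0.19), RPL13A (0.19), RPS27 (0.19), RPL39 (0.18) and RPLP2 (0.18), with adjusted p from 0.0136 for RPL28 to 0.0487 for RPL39. RPL13A, which is also known as part of an interferon-induced translational silencing complex, was at 2481 and 2594 CPM at 0 h and 3513 and 3400 at 3 h. The count called in either direction, 10 with all libraries, was 47 without siControl 0 h replicate 1, 2 without 0 h replicate 2 or 3 h replicate 1, and 3 without 3 h replicate 2.

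From 3 to 6 h the median member change was -0.09, against -0.42 for all genes. No member rose and 3 fell, beside 0.152% of all genes that rose and 64.9% that fell. The members that fell were RPL36A (-0.94, adjusted p 0.0144), RPL4 (-0.22, adjusted p 0.0111) and RPL7A (-0.18, adjusted p 0.0372). RPL4 and RPL7A are core proteins of the large subunit that bind early in its assembly. RPL4 was at 1445 and 1497 CPM at 0 h, 1883 and 1878 at 3 h, and 1973 and 1992 at 6 h, so its CPM at 6 h lay above those at 3 h. With TMM scaling the change from 3 to 6 h was 0.20 for RPL4 and 0.23 for RPL7A. The count called from 3 to 6 h was 0 without siControl 3 h replicate 1 or 6 h replicate 2, 1 without 3 h replicate 2, 5 without either 0 h replicate and 9 without 6 h replicate 1.

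Neither subunit nor length separated the members by slope in siControl, and the medians by TOP start differed little. The median slope was 0.03 for the 46 large subunit members and 0.03 for the 31 small subunit members. Spearman's rho between slope and canonical transcript length was 0.00 over the 77 members, which share the same libraries, and that between slope and RPKM was 0.38. Among the 72 members without a large overlap, the median slope was 0.04 for the 43 with a TOP start, 0.01 for the 15 without and 0.05 for the 14 with no entry. In the knockdowns the median with a TOP start was also above that without, at 0.18 against 0.15 in siIGF2BP1 and 0.21 against 0.14 in siIGF2BP2. In siIGF2BP3 it was 0.20 against 0.16. These differences were not tested and are given as a description.

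Related gene groups placed the ribosomal protein mRNAs beside others. The other TOP mRNAs, which encode translation factors and partners such as PABPC1, had a median siControl slope of -0.09. Of 19 tested, 0 rose and 6 fell, beside 0.251% and 80.3% of all genes. EEF1A1, the factor that delivers aminoacyl-tRNA, was at 6880 and 6756 CPM at 0 h and 9330 and 9486 at 6 h, with a slope of -0.09 (SE 0.083, adjusted p 0.34). EEF2, the translocase, had a slope of -0.29 (SE 0.082, adjusted p 0.0030). EEF1G, the only listed gene not tested, had a mean of 0 CPM over all libraries. How its reads were assigned was not examined, so this 0 is not read as absence of the mRNA.

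Genes with related products lay lower, nearer to the median of -0.88 for all genes, of which 80.3% fell. Counts of falls near that share are not read as a trait of a group. The mitochondrial ribosomal proteins had a median slope of -0.70, and 67 of 77 tested fell. Dedicated chaperones of ribosomal proteins had a median of -0.56 with 7 of 8 lower, among them AAMP (-0.26) and BCCIP (-0.37). Of the 8 paralogs left out by the rule, 5 were tested, and all 5 fell with a median of -0.62, RPL7L1 at -0.77 and RPL36AL at -0.87. Regulators of TOP mRNAs had a median of -0.73 with 13 of 15 lower, LARP1 at -0.79 and CNBP at -0.25. The 10 hepatocyte markers had a median of 0.01 with 2 lower, so a slope near 0 was also seen outside the ribosomal protein mRNAs.

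**Figure D3:**
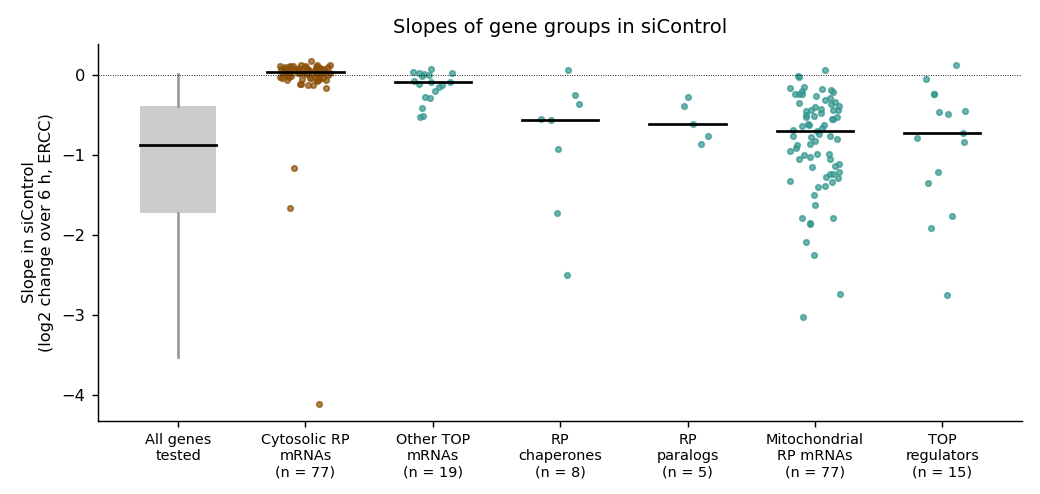
Slope over 6 h in siControl (log2, ERCC scale) for all genes tested and for each gene group, with a point for each gene and a line at each median. The median is 0.03 for the ribosomal protein mRNAs, -0.09 for other TOP mRNAs, -0.56 for chaperones, -0.62 for paralogs, -0.70 for mitochondrial ribosomal proteins and -0.73 for TOP regulators.

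In the knockdowns the members again held their level while most genes fell. In siIGF2BP1 their median slope was 0.17 against -0.69 for all genes, and 39 members rose and 2 fell, beside 2.69% and 69.1% of all genes. In siIGF2BP2 it was 0.19 against -0.71, with 44 members higher and 3 lower, beside 2.44% and 71.3% of all genes. In siIGF2BP3 it was 0.19 against -0.65, with 44 higher and 2 lower, beside 2.91% and 67.2%. The median member stood at percentile 94.5, 95.5 and 94.8 of all slopes in siIGF2BP1, siIGF2BP2 and siIGF2BP3, where 69, 70 and 69 members lay above percentile 90.

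RPLP0 was among the leading risers in all 3 knockdowns. In siIGF2BP1 these included RPSA (0.31), the laminin receptor that is also a small subunit protein, and RPLP0 (0.30). In siIGF2BP2 they included RPL28 (0.31) and RPLP0 (0.29). In siIGF2BP3 they included RPLP0 (0.29) and RPL39 (0.29). RPSA was at 890 and 979 CPM at 0 h and 1493 and 1494 at 6 h in siIGF2BP1. Against the spike-in its 6 h level there was 124% ± 0.89 of 0 h (SD, n = 2), beside 107% ± 10.0 in siControl. RPL36A and RPS10 were lower in all 3 knockdowns. The half-life was under 24 h for 3 of 77 members in each condition, and no net loss was measured for 67 (siControl), 70 (siIGF2BP1), 67 (siIGF2BP2) and 71 (siIGF2BP3). Half-lives were taken on the ERCC scale for members alone, so no share of all genes stands beside these counts.

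These counts of risers followed the spike-in and single libraries. With TMM scaling 74 members rose in each knockdown, beside 36.1%, 34.7% and 36% of all genes in siIGF2BP1, siIGF2BP2 and siIGF2BP3. Beside them, 38.4%, 39.2% and 37.5% of all genes fell on that scale. Without siIGF2BP2 6 h replicate 2, the library with 46.0 member reads per ERCC read, 5 members rose in siIGF2BP2 in place of 44. In siIGF2BP1 the count was 14 without its 0 h replicate 1, 25 without 0 h replicate 2, 23 without 6 h replicate 1 and 19 without 6 h replicate 2. In siIGF2BP3 it was 17 without its 0 h replicate 1 and 20 without 6 h replicate 1. The 16 libraries with few pseudogene reads hold no 6 h library of any knockdown, so the knockdown slopes fitted in them come from 0 and 3 h alone and are extended to 6 h. There the median slopes were 0.09, 0.22, 0.06 and 0.10 in siControl and the 3 knockdowns in turn, against -0.85, -0.75, -0.97 and -0.82 for all genes.

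The next comparison asked whether loss of an IGF2BP protein changed the decay of these mRNAs, as the difference between the slope in a knockdown and in siControl. No member passed the edgeR test in siIGF2BP1, siIGF2BP2 or siIGF2BP3, beside 0.0152%, 0% and 0.0228% of all genes. At an unadjusted p below 0.05 the counts were 0, 5 and 6 members, and DESeq2 called 0 members in each. All genes were not counted at that unadjusted threshold, so nothing is read from those counts. The median member difference was 0.15 in siIGF2BP1, 0.16 in siIGF2BP2 and 0.17 in siIGF2BP3, and that of all genes was 0.19, 0.17 and 0.22. With TMM scaling the member medians were -0.05, -0.04 and -0.06, and those of all genes -0.007, -0.024 and -0.006. The medians of members and of all genes thus both changed sign with the scale. On both scales the member median lay slightly below that of all genes in each knockdown, a gap that was not tested.

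For one of the best measured members, RPLP0, the slope difference was 0.17 (SE 0.108) in siIGF2BP1, 0.17 (SE 0.107) in siIGF2BP2 and 0.17 (SE 0.108) in siIGF2BP3. With errors of this size, a difference in decay of about 0.2 log2 units over 6 h was not detectable for a single member. Without siControl 0 h replicate 2, 1 member passed in siIGF2BP3.

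Before actinomycin D, loss of IGF2BP1 was followed by lower levels of 8 members and higher levels of none (0 h, TMM scale). Of all genes 6.5% were lower and 9.43% higher, and the median member change was -0.03 against 0.01. They included RPS15 (-0.73), RPL14 (-0.12), RPL23 (-0.11), RPL3 (-0.10), RPS12 (-0.10), RPL12 (-0.09) and RPL5 (-0.09). RPL5 belongs, with RPL11 and 5S ribosomal RNA, to the particle known for binding MDM2.

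RPS15 (chromosome 19, 1438358 to 1440495, plus strand), a small subunit protein near the decoding site, stood far from the other members. At 0 h it was at 419 and 422 CPM in siControl and at 240 and 261 in siIGF2BP1. In siIGF2BP2 it was at 432 and 434 CPM, and in siIGF2BP3 at 429 and 406. Both siIGF2BP1 libraries lay below all 6 other 0 h libraries. The difference was -0.73 (SE 0.035, edgeR adjusted p 1.3e-18) in siIGF2BP1, and over its 32 alternative settings it ran from -0.80 to -0.67 and always passed.

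The lower level of RPS15 in siIGF2BP1 held through the time course. At 3 h it was at 556 and 567 CPM in siControl and 312 and 316 in siIGF2BP1, and at 6 h at 671 and 642 against 388 and 377. Over all times the difference was -0.79 (SE 0.020, adjusted p 4.0e-28). Its slope in siIGF2BP1 differed from siControl by 0.15 (SE 0.104, adjusted p 0.53), close to the median of all genes. Over all times RPS15 differed by 0.03 (adjusted p 0.23) in siIGF2BP2 and by -0.06 (adjusted p 0.015) in siIGF2BP3.

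RPL14, a large subunit protein, differed by far less. It was at 538 and 537 CPM at 0 h in siControl and at 481 and 494 in siIGF2BP1, a difference of -0.12 (SE 0.031, adjusted p 0.0038). The groups did not overlap. With ERCC scaling the difference was -0.16, with an adjusted p of 0.37. RPL14 was not called without siIGF2BP1 0 h replicate 1. The count of 8 was 1 without siIGF2BP1 0 h replicate 1, 3 without siControl 0 h replicate 1 and 5 without siControl 0 h replicate 2.

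In siIGF2BP2 at 0 h, 1 member was lower and none higher, beside 5.47% of all genes lower and 6.65% higher. It was RPL6 (chromosome 12, 112405189 to 112418838, minus strand), a large subunit protein, at 777 and 786 CPM in siControl and 689 and 708 in siIGF2BP2. The other knockdowns were at 750 and 777 (siIGF2BP1) and 789 and 819 (siIGF2BP3), so both siIGF2BP2 libraries lay below all others. The difference was -0.15 (SE 0.028, adjusted p 0.00013), and with ERCC scaling -0.07 (adjusted p 0.64). In siIGF2BP3 at 0 h no member passed edgeR's test, beside 4.47% of all genes lower and 4.93% higher. At an unadjusted p below 0.05 the count was 5 members, a threshold at which all genes were not counted.

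**Figure D4:**
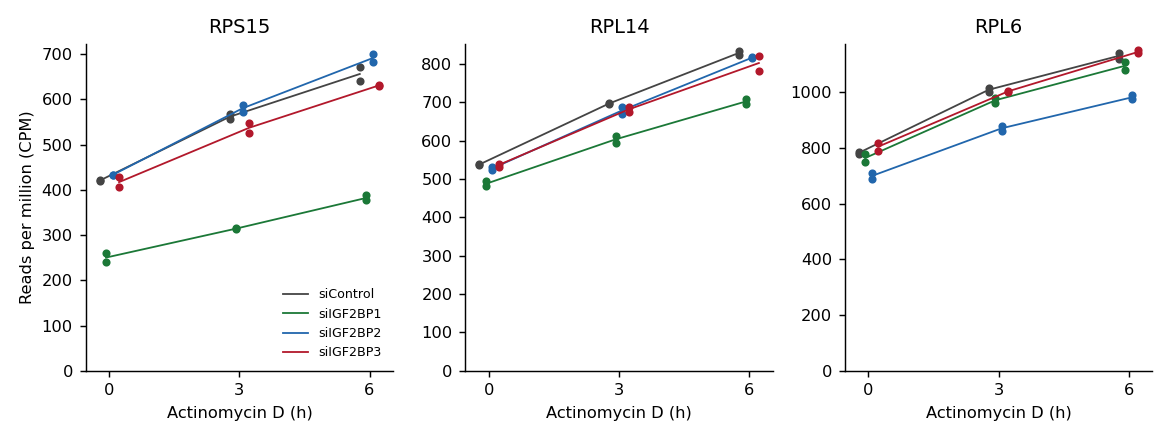
Level in CPM of RPS15, RPL14 and RPL6 against hours of actinomycin D in the 4 conditions, with points for libraries and lines for means. RPS15 in siIGF2BP1 runs from 240 and 261 at 0 h to 388 and 377 at 6 h, below siControl (419 and 422 to 671 and 642), and RPL6 is lowest in siIGF2BP2.

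Taking the mean of all 3 times sharpened small shifts of many members in siIGF2BP1 and siIGF2BP3. On the TMM scale 57 members were lower and 0 higher in siIGF2BP1, beside 18.5% of all genes lower and 21.2% higher. In siIGF2BP2 17 of 77 were lower and 0 higher, beside 16.7% and 17.1%, so the count of lower members there was near the share of all genes. In siIGF2BP3 49 were lower and 0 higher, beside 16% and 16.2%. The shifts were small, with member medians of -0.08, -0.02 and -0.05 against 0.00, 0.01 and 0.00 for all genes. All 3 knockdowns were set against the same 6 siControl libraries. Libraries of the 3 times were treated as independent though they may share a transfection, so these counts and their p-values may be too favorable. The median was -0.08 for large and -0.07 for small subunit members in siIGF2BP1.

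The sign of the member median depended on the scale in siIGF2BP2 and siIGF2BP3, while in siIGF2BP1 it was negative on both. With ERCC scaling 3 members were lower and 0 higher in siIGF2BP1, beside 7.7% and 23.4% of all genes. In siIGF2BP2 0 were lower and 47 higher, beside 3.86% and 44.2%, and in siIGF2BP3 0 were lower and 57 higher, beside 1.96% and 52.9%. On that scale the median of all genes was 0.06, 0.15 and 0.18 and that of the members -0.02, 0.12 and 0.12. With TMM and with ERCC alike the member median lay below that of all genes in each knockdown, a gap that was not tested.

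**Figure D5:**
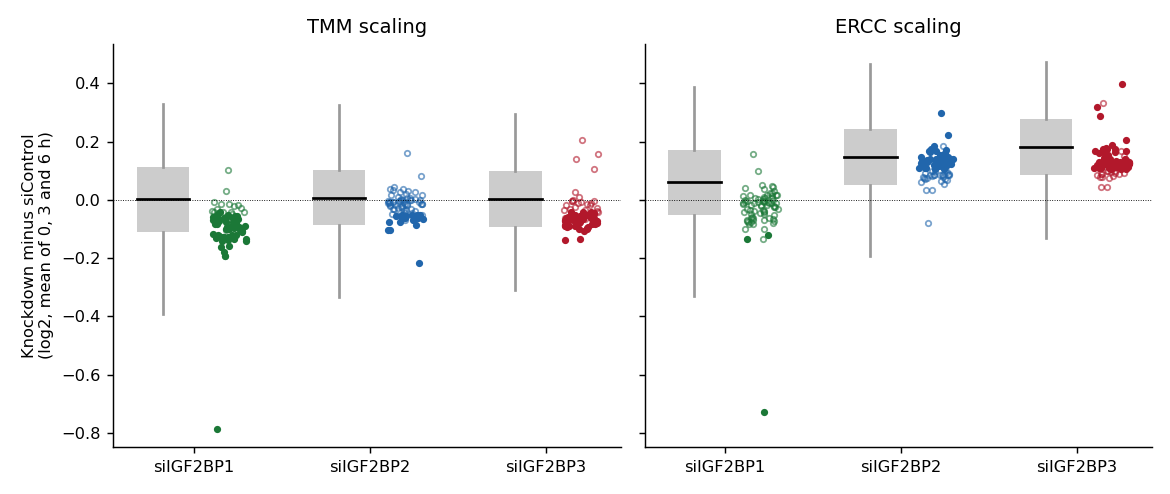
Difference between each knockdown and siControl over 0, 3 and 6 h (log2) for each of the 77 members with TMM (left) and ERCC (right) scaling, filled points having an edgeR adjusted p below 0.05. Medians are -0.08, -0.02 and -0.05 with TMM and -0.02, 0.12 and 0.12 with ERCC in siIGF2BP1, siIGF2BP2 and siIGF2BP3, and RPS15 in siIGF2BP1 is the lowest point on both.

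Named members show the size of these shifts. In siIGF2BP1 RPL14 (-0.19) and RPL13A (-0.14) were among the lowest after RPS15. In siIGF2BP2 RPL6 (-0.22, adjusted p 1.3e-13) was followed by RPL37 (-0.11) and RPL9 (-0.10). In siIGF2BP3 RPL9 (-0.14), RPL11 (-0.14) and RPS12 (-0.11) were lowest. RPL11, the other protein of the MDM2-binding particle, was at 882 and 915 CPM at 6 h in siControl and at 784 and 849 in siIGF2BP3. With ERCC scaling RPL9, RPL11 and RPS12 were at 0.04, 0.04 and 0.07 in siIGF2BP3, RPL37 and RPL9 at 0.03 in siIGF2BP2, and RPL6 at -0.08 (adjusted p 0.15).

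The other gene groups shifted as follows on the TMM scale over all times. Of 19 other TOP mRNAs, 13 were lower and 0 higher in siIGF2BP1, beside 18.5% and 21.2% of all genes. In siIGF2BP2 4 were lower and 2 higher, beside 16.7% and 17.1%. In siIGF2BP3 8 were lower and 1 higher, beside 16% and 16.2%. EEF2 was at 2915 and 2873 CPM at 0 h in siControl and 2569 and 2636 in siIGF2BP1. Of 77 mitochondrial ribosomal protein mRNAs, 32 were higher and 8 lower in siIGF2BP1, beside 21.2% and 18.5% of all genes, with a median of 0.07. In siIGF2BP2 14 were higher and 9 lower, beside 17.1% and 16.7%, with a median of -0.0097. In siIGF2BP3 16 were higher and 4 lower, beside 16.2% and 16%, with a median of 0.02. These counts were made on the TMM scale alone.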

How the data were processed

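The deposited values were raw read counts per gene, which the authors made from trimmed reads (Trimmomatic 0.39) aligned to hg38 (HISAT2 2.1.0, versions from the submitters' processing notes) and counted with HTSeq on GENCODE genes. How multi-mapping reads were counted was not given in the sources used here. The 5 HTSeq summary rows, 13.6% to 17.1% of each library, and 45 duplicate pseudoautosomal rows were left out. Symbols came from GENCODE 44 and matched 58207 of 58676 rows.

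Genes reaching 1 CPM in 2 or more libraries (13136) were tested with edgeR 4.0.16 (quasi-likelihood, R 4.3.3) on all 24 libraries, with Benjamini-Hochberg adjustment and a threshold of 0.05. Slopes were fitted per condition with ERCC totals as scale (16 residual degrees of freedom), and levels as 12 group means with TMM (12). Half-lives averaged the decay rates from 0 h to 3 h and from 0 h to 6 h. DESeq2 1.42.0, other scales and filters, and libraries left out were alternatives. The fits were tested on simulated data. Replicates of every group differed by more than counting noise (chi-square over its degrees of freedom, 3.24 to 8.51). Intervals and SEs cannot remove PCR duplicates.

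Named were a list of well-known members, up to 3 called members per direction and comparison, the 5 highest and 3 lowest by RPKM, the siRNA targets and 2 abundant genes per list, plus RPL17, RPL26, RPS16 and others at the ends of a range, chosen after their values were seen. Some members that this rule names are not reported here, while counts and medians cover all 77. Members and lists were chosen with earlier results of these data known.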

Additional observations from a re-analysis of the deposited data

Results flagged for a closer look

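For the members named before actinomycin D, the change in one knockdown was compared directly with that in another over all times (edgeR, TMM scale), a comparison chosen after seeing the data. RPS15 was lower in siIGF2BP1 than in siIGF2BP2 with a log2 difference of -0.82 (SE 0.020, adjusted p 7.3e-29) and than in siIGF2BP3 with one of -0.72 (adjusted p 7.7e-27), with no overlap of libraries at any time. RPL14 differed by -0.14 (adjusted p 2.7e-08) and -0.15 (adjusted p 1.3e-08) in the same comparisons. RPL6 was higher in siIGF2BP1 than in siIGF2BP2 by 0.17 (adjusted p 2.3e-11), and lower in siIGF2BP2 than in siIGF2BP3 by -0.22 (adjusted p 1.8e-13). With ERCC scaling the RPL6 difference between siIGF2BP1 and siIGF2BP2 was 0.09 (adjusted p 0.099). Knockdowns share the siControl libraries, which cancel in these direct comparisons.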

How the results depend on the processing

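Scale and single libraries set most counts. Members that fell in siControl numbered 1 with TMM and with CPM of at least 5, those that rose 74 with TMM or library size, 9 in the 16 libraries with few pseudogene reads (added after seeing the data, and without 6 h in the knockdowns), and 0 with ERCC median ratios, no filter, the compared groups alone or the replicate block. In siIGF2BP1, falls numbered 1 with TMM, library size or CPM of at least 5 and 0 with pseudogene reads added, and rises 74 with TMM, 73 with library size, 20 with ERCC median ratios and 7 in the 16 libraries. In siIGF2BP2, falls numbered 1 with CPM of at least 5 or pseudogene reads, and rises 74 with TMM or library size, 27 with ERCC median ratios, 26 with the compared groups alone and 0 in the 16 libraries. In siIGF2BP3, falls numbered 1 with TMM, library size or CPM of at least 5 and 0 with pseudogene reads, and rises 74 with TMM or library size, 21 with ERCC median ratios and 0 in the 16 libraries. At 0 h, members called in siIGF2BP1 numbered 1 with ERCC, 17 with library size or CPM of at least 5 and 23 with the compared groups alone; in siIGF2BP2 0, 2 and 7 with ERCC, no filter and the compared groups alone; in siIGF2BP3 2 with the compared groups alone. Over all times ERCC scaling called 3 in siIGF2BP1 and 47 in siIGF2BP2. From 0 to 3 h, 76 were called with TMM, 6 with ERCC median ratios and 16 with DESeq2, and from 3 to 6 h 74 with TMM. The cause of these changes was not tested.

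Changes of sign were those of RPL36A with pseudogene reads added (0.0081, 0.56, 0.58 and 0.59 in siControl, siIGF2BP1, siIGF2BP2 and siIGF2BP3), of RPL37 (0.033) and RPL9 (0.034) in siIGF2BP2 and RPL9 (0.042), RPL11 (0.044) and RPS12 (0.073) in siIGF2BP3 with ERCC over all times, and of RPL4 (0.20) and RPL7A (0.23) from 3 to 6 h with TMM. With libraries left out in turn, rises ranged from 0 to 8 in siControl, 14 to 49 in siIGF2BP1, 5 to 56 in siIGF2BP2 and 17 to 51 in siIGF2BP3, and falls from 2 to 10, 1 to 2, 2 to 3 and 1 to 3 (8 rises without siControl 6 h replicate 2, 10 falls without siControl 0 h replicate 2). Slope differences ranged from 0 to 0, 0 to 0 and 0 to 1, calls at 0 h from 1 to 11, 1 to 1 and 0 to 1, calls over all times from 49 to 64, 12 to 22 and 36 to 53, from 0 to 3 h from 2 to 47 and from 3 to 6 h from 0 to 9. Target changes ranged from -2.51 to -2.49, -2.14 to -2.11 and -1.80 to -1.77. Same-numbered replicates did not deviate together (correlations -0.04 to 0.09), and with the replicate block no member rose in siControl and no other count moved by over 1.5 times.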

Other observations

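RPL7L1, a paralog that the rule leaves out and that is known for a role in ribosome assembly, was higher at 0 h in every knockdown. It was at 166 and 156 CPM in siControl, 225 and 226 in siIGF2BP1, 218 and 214 in siIGF2BP2 and 237 and 242 in siIGF2BP3, with all 6 knockdown libraries above both siControl libraries. The differences were 0.51, 0.43 and 0.58 on the log2 scale (edgeR adjusted p 1.5e-13, 7.0e-12 and 5.2e-15), and all 3 rest on the same siControl libraries. RPL22L1, the paralog of RPL22, was at 42.8 and 46.7 CPM at 0 h in siControl and 54.9 and 53.1 in siIGF2BP3, a difference of 0.28 (adjusted p 0.0017). In siIGF2BP2 it differed by 0.21 (adjusted p 0.014) and in siIGF2BP1 by 0.04 (adjusted p 0.78). RPL22 itself was not called in any knockdown at 0 h.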
